A study of Homo sapiens with 10 samples.

Results

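The trypsinogen genes PRSS1, PRSS2 and PRSS3, the Kazal-type inhibitor genes SPINK1, SPINK4 and SPINK5, and TMPRSS15, which encodes enteropeptidase, were described in LS180 cells, a human colorectal cancer line. The members were chosen by gene symbol in the deposited table, with results of these libraries known: PRSS2 had been seen to be lower and SPINK1 higher in lines with RNASE1 guides, and members had been seen to differ between lettered libraries. All 7 members were among the 58870 genes of the table. The study compared 3 LS180 lines that carry CRISPR interference (CRISPRi, a method that represses a gene at its promoter) with guides against RNASE1, named sg1, sg2 and sg3, with 2 lines that carry non-targeting guides, NTC1 and NTC2. Each line was profiled by mRNA sequencing in libraries A and B, which gave 6 guide libraries and 4 NTC libraries, and no line received a drug. The labels call the lines established and give each a single guide, so a difference between 2 lines holds the guide and everything else in which those cultures differ. All values come from bulk RNA, so fewer cells that express a gene and less of its RNA per cell cannot be told apart.

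Trypsin is made as an inactive zymogen, trypsinogen, mainly in the acinar cells of the pancreas. Enteropeptidase on the duodenal surface removes a short activation peptide, and the trypsin so released activates further zymogens. Kazal inhibitors bind the active site of trypsin-like proteases and block them, with SPINK1 as the main guard against early trypsin activity in the pancreas. Outside the pancreas, trypsinogens are also made by epithelial and cancer cells, where trypsin can cut the protease-activated receptor PAR2. PRSS1 encodes cationic trypsinogen, PRSS2 anionic trypsinogen and PRSS3 mesotrypsinogen, whose enzyme resists many trypsin inhibitors. SPINK4 is a product of intestinal goblet cells and SPINK5 encodes the skin inhibitor LEKTI.

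The 3 trypsinogen genes are near copies of each other, which matters because RSEM divides reads that fit several genes. In GENCODE 29 on GRCh38, PRSS1 (ENSG00000204983) lies on chromosome 7 from 142749468 to 142753076, PRSS2 (ENSG00000275896) on chromosome 7 from 142760398 to 142774564 and PRSS3 (ENSG00000010438) on chromosome 9 from 33750466 to 33799231, all on the plus strand. In the transcripts compared, 1 per gene, each had 741 coding bases before the stop codon. PRSS2 was identical to PRSS1 at 688 bases (92.9%) and to PRSS3 at 691 bases (93.3%), and PRSS1 was identical to PRSS3 at 678 bases (91.5%). At 81 of the 741 positions at least 1 of the 3 genes differed. The 60-base coding window with the most differences, from coding base 302 to 361 in exon 3, is shown because reads over it tell the 3 genes apart. Capitals mark the 14 positions at which the genes differ. In PRSS1 the window lies at chr7:142751875-142751934, in PRSS2 at chr7:142773367-142773426 and in PRSS3 at chr9:33797930-33797989.
PRSS1: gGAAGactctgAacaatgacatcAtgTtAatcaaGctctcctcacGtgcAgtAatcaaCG
PRSS2: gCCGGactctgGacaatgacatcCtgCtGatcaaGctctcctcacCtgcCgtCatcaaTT
PRSS3: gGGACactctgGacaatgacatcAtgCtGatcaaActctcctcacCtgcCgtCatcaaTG

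The longest coding stretch without a difference between PRSS1 and PRSS2 had 68 bases, against 63 bases between PRSS2 and PRSS3 and 39 bases between PRSS1 and PRSS3. It runs from coding base 187 to 254, over the end of exon 2 and the start of exon 3, and is shown because a read inside it fits both genes. It lies at chr7:142750701-142750714 and chr7:142751774-142751827 in PRSS1 and at chr7:142772195-142772208 and chr7:142773266-142773319 in PRSS2.
PRSS1 and PRSS2: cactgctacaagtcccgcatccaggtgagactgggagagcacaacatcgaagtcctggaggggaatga
Of all 50-base words in the annotated transcripts of PRSS2, 10.6% also occurred in a transcript of another gene, and the shares were 4.23% for PRSS1 and 4.06% for PRSS3. For SPINK1, SPINK4, SPINK5 and TMPRSS15 the share was 0%. Of the 143 shared words of PRSS2, 87 were found in PRSS1, 14 in PRSS3 and 56 in the pseudogene PRSS3P1, some words in more than 1 of them. PRSS3P1 overlaps PRSS2 and had 1 count, in NTC2 A, and 0 in the other 9 libraries.

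The counts themselves showed where reads had been divided. PRSS1 and PRSS2 had expected counts that were not whole in 10 of 10 libraries, with whole meaning within 0.001 of an integer. The sum of PRSS1 and PRSS2 was whole in all 10 libraries. PRSS3 was not whole in 7 libraries, and its sum with TMEM45B, a transmembrane protein gene with which it shared 40 words, was whole in all 10. In these libraries the fractions of PRSS1 and PRSS2 thus cancelled in their sum, and those of PRSS3 cancelled with TMEM45B. SPINK1 and SPINK4 held whole counts in every library. Among 11830 genes with a mean of at least 100 counts, 11.3% had no whole value in any library.

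The RefSeq promoters of the 3 trypsinogen genes are also alike. All 7 members matched the RefSeq promoter table (build GRCh38.p14). The 100 bases before the RefSeq start are shown for the members with counts in every library, to set the trypsinogen genes beside each other and beside SPINK4 and SPINK1. Capitals mark the letters TATAAA, as in a TATA box, which were searched for on both strands of the 100 bases.
PRSS1: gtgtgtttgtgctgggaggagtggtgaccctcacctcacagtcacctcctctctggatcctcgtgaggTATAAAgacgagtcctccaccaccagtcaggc
PRSS2: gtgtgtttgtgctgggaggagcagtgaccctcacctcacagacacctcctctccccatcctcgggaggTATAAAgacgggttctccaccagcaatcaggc
PRSS3: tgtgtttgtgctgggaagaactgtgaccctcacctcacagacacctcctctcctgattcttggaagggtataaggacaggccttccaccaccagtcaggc
SPINK4: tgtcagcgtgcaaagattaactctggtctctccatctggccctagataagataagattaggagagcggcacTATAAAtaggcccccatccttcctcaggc
SPINK1: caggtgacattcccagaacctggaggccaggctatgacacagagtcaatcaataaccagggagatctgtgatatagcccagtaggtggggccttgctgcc
The windows lie at chr7:142749372-142749471 for PRSS1, chr7:142770870-142770969 for PRSS2, chr9:33795461-33795560 for PRSS3, chr9:33240067-33240166 for SPINK4, all on the plus strand, and at chr5:147831672-147831771 on the minus strand for SPINK1. PRSS1 and PRSS2 were identical at 89 of 100 aligned positions, and PRSS3 at 83 of 101 with PRSS1 and at 84 of 101 with PRSS2. TATAAA began 32 bases before the start in PRSS1 and in PRSS2 and 29 bases before it in SPINK4. Near matches, such as tataag in PRSS3, were not counted. The exact TATAAA was not found in PRSS3 or SPINK1. Of the members with almost no counts, whose windows are not shown, SPINK5 held it 30 bases before the start, and also on the reverse strand at 32 bases, and TMPRSS15 held it on the reverse strand at 63 bases. The letters were thus found in 5 of the 7 members, with and without counts. Of 35116 promoter windows of the same length, 4.99% held TATAAA on either strand. The gene-level table does not say which start of a gene was used. Whether these letters bear on the level of any member was not tested.

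Before the levels of the members, the target of the guides was read as a check of the labels. RNASE1, a secreted ribonuclease gene, held 1.02 and 1.38 CPM in sg1 (A and B), 3.36 and 3.75 CPM in sg2 and 1.66 and 1.57 CPM in sg3, against 16.4 and 23.7 CPM in NTC1 (A and B) and, in NTC2, 19.1 and 22.9 CPM. RNASE1 stood at 2.12 ± 1.256 CPM in guide lines (SD, n = 3 lines) and 20.5 ± 0.69 CPM in NTC lines (SD, n = 2 lines), where CPM is the count scaled to library size (TMM) on the usual CPM scale. Library totals were 39026605 to 45050991 expected counts, so 3 counts in a library corresponded to 0.0656 to 0.0768 CPM. Of 12 markers of colonic epithelium, such as EPCAM and KRT8, 0 were under 1 CPM, and their summed level was 6739 to 8435 CPM in guide libraries and 6774 to 8466 CPM in NTC libraries. Markers of pancreatic acinar cells other than the trypsinogens, such as CPA1 and PNLIP, were at or near 0: 17 of 17 were under 1 CPM, 8 had no count in any library, and their summed level was 1.12 to 1.60 CPM in guide libraries and 0.685 to 2.07 CPM in NTC libraries. Markers of fibroblasts, endothelium and an embryonic kidney line were summed at under 5 CPM in every library. The 6 leukocyte markers summed to 35.1 to 45.2 CPM in guide libraries and 42.3 to 46.0 CPM in NTC libraries, most of it from LYZ, which intestinal epithelium also expresses.

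Of the 7 members, 5 had counts in every library and passed the filter on low counts. Compared per kilobase of annotated exons, PRSS3 and SPINK4 were the highest. PRSS3 held 35.9 to 53.8 CPM per kb in guide libraries and 39.2 to 52.0 CPM per kb in NTC libraries, and SPINK4 held 36.1 to 49.5 CPM per kb in guide libraries and 41.4 to 49.6 CPM per kb in NTC libraries. These ranges overlapped, so the order of PRSS3 and SPINK4 was within the spread of the libraries. PRSS2 followed at 12.7 to 16.3 CPM per kb in guide libraries and 16.8 to 18.8 CPM per kb in NTC libraries, then PRSS1 at 2.25 to 3.50 CPM per kb in guide libraries and 3.21 to 4.00 CPM per kb in NTC libraries. SPINK1 was lowest of the 5, at 0.412 to 0.666 CPM per kb in guide libraries and 0.209 to 0.399 CPM per kb in NTC libraries. The mesotrypsinogen gene was thus the most abundant trypsinogen gene in every library.

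Enteropeptidase and LEKTI transcripts were not detectable or nearly so. TMPRSS15 (ENSG00000154646, chromosome 21 from 18269116 to 18485879) had 0 counts in all 10 libraries, which allows up to 0.0768 CPM in the shallowest, for counting error only. SPINK5 (ENSG00000133710, chromosome 5 from 148025683 to 148137289) had 4 counts in sg3 A and 0 in the other 9 libraries. Neither passed the filter, and no fold change is given for them.

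**Figure D1:**
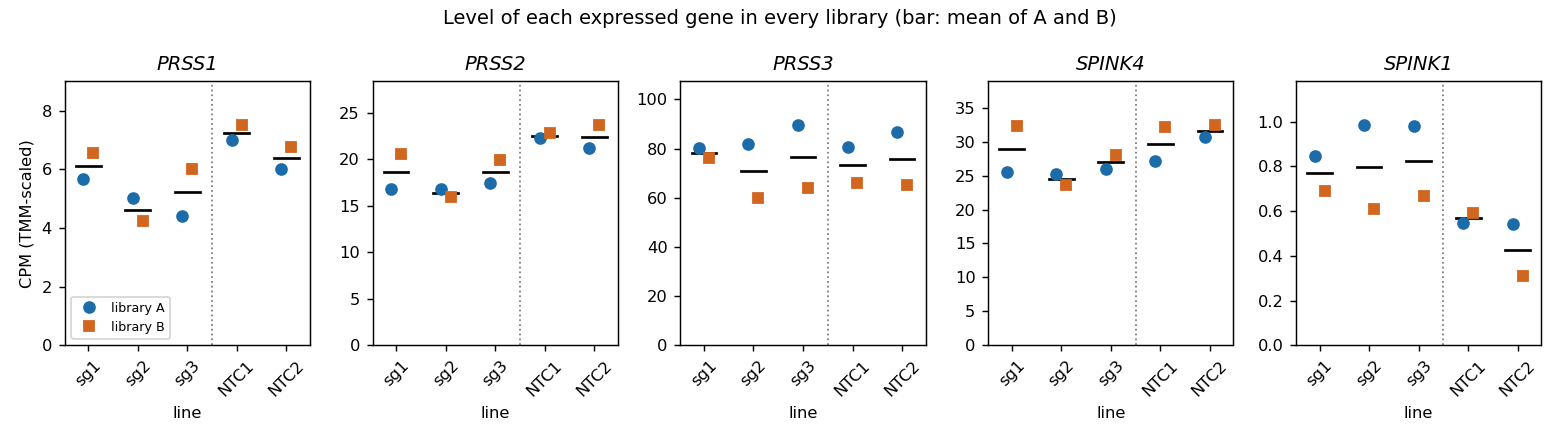
Level of PRSS1, PRSS2, PRSS3, SPINK4 and SPINK1 in TMM-scaled CPM (vertical axes from 0) in guide lines sg1, sg2 and sg3 and in NTC1 and NTC2; circles are A libraries, squares B libraries and bars the mean of both. For PRSS2 all 6 guide libraries, at 16.0 to 20.6 CPM, lie below the 4 NTC libraries at 21.2 to 23.7 CPM, and for SPINK1 all 6 lie above.

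PRSS2, the anionic trypsinogen gene, was lower in every guide library than in any NTC library. It held 16.8 and 20.6 CPM in sg1 (A and B), 16.8 and 16.0 CPM in sg2 and 17.4 and 19.9 CPM in sg3, against 22.3 and 22.8 CPM in NTC1 (A and B) and, in NTC2, 21.2 and 23.7 CPM. The groups did not overlap, and the gap between the highest guide library and the lowest NTC library was small beside the range within the guide group. The line means were 17.9 ± 1.33 CPM in guide lines (SD, n = 3 lines) and 22.5 ± 0.06 CPM in NTC lines (SD, n = 2 lines), which put the guide lines at 79.6% of the NTC level and gave a log2 fold change of -0.33. The rule used this contrast, so the value is a description with no test. Of 16411 genes tested across the libraries, 0.408% had all guide libraries below all NTC libraries.

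PRSS1, the cationic trypsinogen gene, lay on the same side with more spread. It held 5.68 and 6.56 CPM in sg1, 5.02 and 4.22 CPM in sg2 and 4.41 and 6.02 CPM in sg3, against 6.99 and 7.51 CPM in NTC1 (A and B) and, in NTC2, 6.02 and 6.77 CPM. Guide and NTC libraries overlapped across letters, because sg1 B exceeded NTC2 A, but within letter A and within letter B every guide library was below both NTC libraries. The same held within both letters for 1.52% of the genes tested. The guide lines averaged 5.32 ± 0.754 CPM (SD, n = 3 lines) and the NTC lines 6.82 ± 0.607 CPM (SD, n = 2 lines), a log2 fold change of -0.36.

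Because reads were divided between PRSS1 and PRSS2, their counts were also summed, a choice made after the data had been seen. The sum was 927 and 1060 counts in sg1, 973 and 862 in sg2 and 935 and 1087 in sg3, against 1231 and 1385 in NTC1 and 1153 and 1282 in NTC2. In CPM the guide libraries, at 20.2 to 27.1, stayed below the NTC libraries, at 27.2 to 30.4, with a log2 fold change of -0.34. PRSS2 supplied 838 of the mean 1089.5 counts of the sum, so the sum mostly repeats PRSS2, and the part of divided reads in the difference was not tested. The ratio of PRSS2 to PRSS1 was 2.95 to 3.96 in guide libraries and 3.03 to 3.52 in NTC libraries, ranges that overlapped.

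PRSS3, the mesotrypsinogen gene, had guide and NTC libraries intermixed. It held 80.3 and 76.3 CPM in sg1, 81.8 and 59.7 CPM in sg2 and 89.5 and 63.9 CPM in sg3, against 80.4 and 66.0 CPM in NTC1 (A and B) and, in NTC2, 86.6 and 65.2 CPM. In all 5 lines A was above B, and the letter separated the libraries where the guide did not. The guide lines averaged 75.3 ± 3.99 CPM (SD, n = 3 lines) and the NTC lines 74.5 ± 1.89 CPM (SD, n = 2 lines), a log2 fold change of 0.02 whose sign turned in 6 of 22 alternatives. Summed over the trypsinogen genes and their pseudogenes, of which PRSS3 made up most, the level was 98.5 ± 5.97 CPM in guide lines and 103.8 ± 1.23 CPM in NTC lines (SD, n = 3 and 2 lines), a log2 fold change of -0.08. The share of PRSS3 in the counts of the 3 genes was 71.1% to 80.4% in guide libraries and 68.2% to 76.1% in NTC libraries.

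SPINK1, the pancreatic trypsin inhibitor gene (ENSG00000164266, chromosome 5 from 147824568 to 147831786, minus strand), was higher in every guide library than in any NTC library, at few counts. It had 35 and 27 counts in sg1 (A and B), 44 and 26 in sg2 and 42 and 28 in sg3, against 23 and 27 in NTC1 and 23 and 13 in NTC2. Scaled to depth these were 0.609 to 0.985 CPM in guide libraries and 0.309 to 0.590 CPM in NTC libraries, so the groups did not overlap but nearly met. By counting error alone the 26 counts of sg2 B had an exact Poisson 95% interval of 17.0 to 38.1 and the 27 counts of NTC1 B one of 17.8 to 39.3. Guide lines averaged 0.797 ± 0.028 CPM (SD, n = 3 lines) and NTC lines 0.497 ± 0.101 CPM (SD, n = 2 lines), or 160.3% of the NTC level and a log2 fold change of 0.68. The contrast was used by the rule and has no test. Of the genes tested, 0.5% had all guide libraries above all NTC libraries, and 2.33% had them above within both letters. NTC2 B, the lowest library, held 13 counts, and without it the log2 fold change was 0.52.

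SPINK4 (ENSG00000122711, chromosome 9 from 33218365 to 33248567, plus strand) was lower in 5 of 6 guide libraries than the NTC mean of their letter. It held 25.6 and 32.3 CPM in sg1, 25.3 and 23.6 CPM in sg2 and 26.0 and 28.0 CPM in sg3, against 27.1 and 32.2 CPM in NTC1 (A and B) and, in NTC2, 30.7 and 32.4 CPM. The groups overlapped, and sg1 B lay between NTC1 B and NTC2 B. The guide lines averaged 26.8 ± 2.26 CPM (SD, n = 3 lines) and the NTC lines 30.6 ± 1.35 CPM (SD, n = 2 lines), a log2 fold change of -0.19. The gene overlaps BAG1, which lies on the opposite strand at a mean of 68.8 CPM, but their annotated exons do not overlap. SPINK4 is itself a goblet cell product, and 8 of 8 goblet cell markers had negative log2 fold changes in the same fit (median -0.20), against a median of 0.00 over all 17335 genes. Their summed level was 833 to 1042 CPM in guide libraries and 872 to 1183 CPM in NTC libraries, and edgeR called 0 of the 8, of which 7 had an unadjusted p under 0.05, as had 1384 of all 17335 genes. MUC2, the main gel-forming mucin of the colon, stood at -0.30 (SE 0.06, adjusted p = 0.184). Whether the goblet markers bear on the SPINK4 value was not tested.

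**Figure D2:**
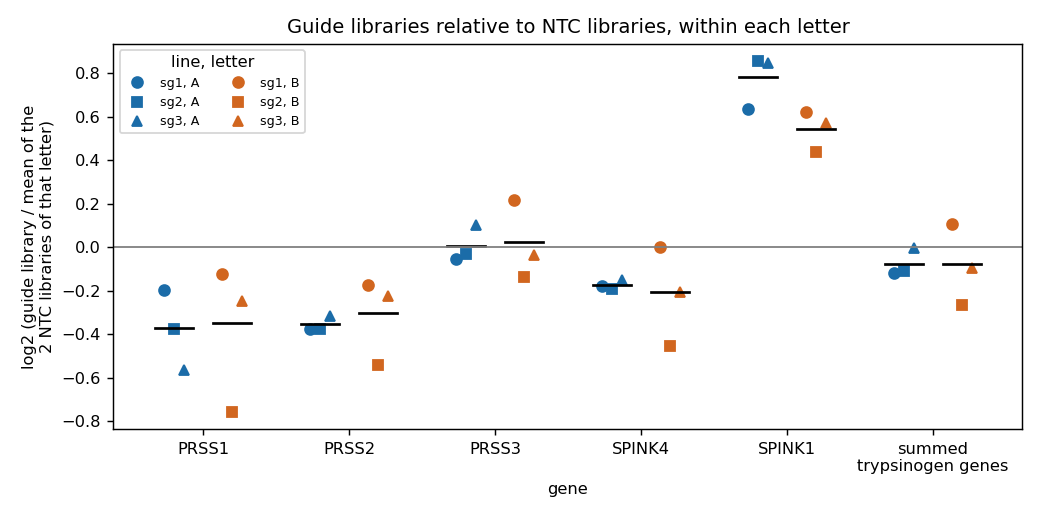
Log2 ratio of each guide library to the mean of the NTC1 and NTC2 libraries of the same letter (vertical axis), for 5 genes and for the summed trypsinogen genes; blue is letter A, orange letter B, symbols are the guide lines and bars the log2 ratio of the guide mean. PRSS1 and PRSS2 lie below 0 and SPINK1 above 0 in all 6 guide libraries, while PRSS3 has 2 above 0 and 4 below.

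The ratio of group means had the same sign in A and in B for each of the 5 genes. The log2 ratio of the guide mean to the NTC mean was -0.36 in A and -0.30 in B for PRSS2, and -0.37 and -0.35 for PRSS1. For SPINK1 it was 0.78 in A and 0.55 in B, for SPINK4 -0.17 and -0.21, and for PRSS3 0.01 and 0.02. Single lines varied more: sg2 B was the lowest guide library relative to NTC for PRSS1 (-0.76), PRSS2 (-0.54), PRSS3 (-0.14) and SPINK4 (-0.45). A test of whether the difference between letters itself differed between arms, which the rule did not use, gave 0.05 for PRSS2 (95% interval -0.19 to 0.28, edgeR adjusted p = 0.973) and -0.21 for SPINK1 (-1.28 to 0.87, adjusted p = 0.975) on the log2 scale. The intervals were -0.40 to 0.41 for PRSS1, -0.21 to 0.23 for PRSS3 and -0.29 to 0.19 for SPINK4. Over 16411 genes that edgeR test called 0, with 941 at an unadjusted p under 0.05, and DESeq2 called 3.

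**Figure D3:**
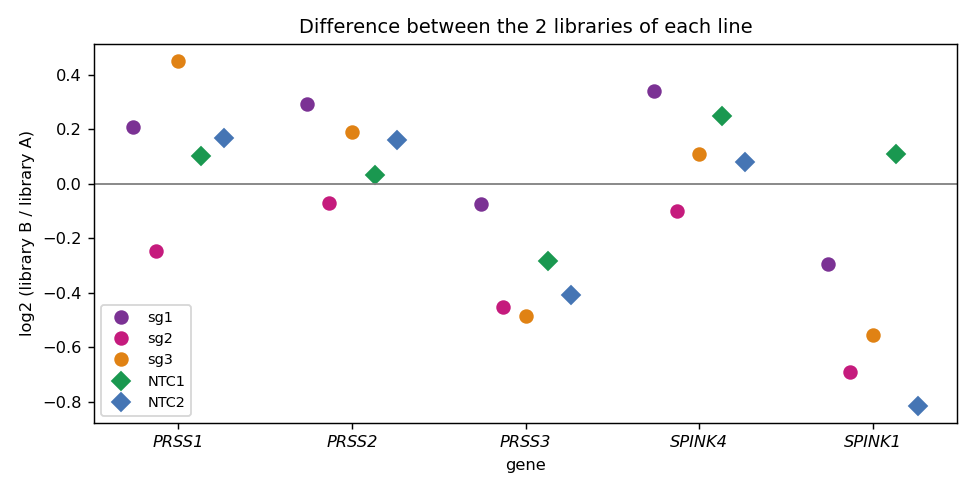
Log2 ratio of library B to library A (vertical axis) in each line for 5 genes; circles are guide lines and diamonds NTC lines. PRSS3 lies below 0 in all 5 lines, from -0.49 to -0.07, whereas PRSS1, PRSS2 and SPINK4 lie above 0 in every line except sg2.

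The letters separated the mesotrypsinogen gene from the other trypsinogens. PRSS3 was lower in B than in A in each of the 5 lines, with log2 ratios of -0.07 in sg1, -0.45 in sg2, -0.49 in sg3, -0.29 in NTC1 and -0.41 in NTC2. B lay below A in all 5 lines for 17% of the genes tested and above A for 17.6%, and edgeR called 29.6% between the letters, with 15% of the genes lower in B and 14.6% higher, so a letter difference was common and is a description here. For PRSS1 the ratios ran from -0.25 in sg2 to 0.45 in sg3, and for PRSS2 from -0.07 in sg2 to 0.29 in sg1. SPINK4 ran from -0.10 in sg2 to 0.34 in sg1. The ratio of SPINK1 was negative in 4 lines, down to -0.81 in NTC2, and 0.11 in NTC1. The labels do not say what the letters stand for.

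The 3 guide lines and the 2 NTC lines were then compared among themselves, in fits that the rule did not use. PRSS2 averaged 18.7 ± 2.68 CPM in sg1, 16.4 ± 0.55 CPM in sg2 and 18.7 ± 1.74 CPM in sg3 (SD, n = 2 libraries each), a range of 0.19 on the log2 scale. PRSS1 spanned 0.41, from 4.62 CPM in sg2 to 6.12 CPM in sg1, and SPINK4 0.24, PRSS3 0.15 and SPINK1 0.10. The edgeR adjusted p for a difference among guide lines was 1 for each of these 5 genes. With the letter as a replicate block the unadjusted p was 0.0468 for PRSS1, 0.0455 for SPINK4 and 0.0739 for PRSS2, and the adjusted p was 0.999 for each. Over all 16411 genes 0 passed without the block, with 226 at an unadjusted p under 0.05, while 8 (0.0487%) passed with it and 8 by DESeq2.

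The edgeR test called no difference between NTC2 and NTC1 for any of the 5 genes. The log2 difference NTC2 minus NTC1 was -0.01 for PRSS2 (SE 0.11, 95% interval -0.25 to 0.24), -0.18 for PRSS1 (SE 0.17, -0.55 to 0.19) and 0.05 for PRSS3 (SE 0.20, -0.40 to 0.50). It was -0.42 for SPINK1 (SE 0.41, -1.34 to 0.51), the widest of the 5 intervals, and 0.09 for SPINK4 (SE 0.12, -0.18 to 0.36). The edgeR adjusted p was 1 for each. With the letter as a replicate block the PRSS2 interval narrowed to -0.18 to 0.17 and the PRSS3 interval to -0.12 to 0.21 (SE 0.08). The block intervals of the others were -0.48 to 0.11 for PRSS1, -1.28 to 0.37 for SPINK1 and -0.09 to 0.27 for SPINK4. Over all genes 0 were called without the block, with 282 at an unadjusted p under 0.05, while 2 (0.0122%) were called with it and 2 by DESeq2.

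Levels of PRSS1, PRSS2 and SPINK4 moved together over the 10 libraries. Pearson's r of log2(CPM + 0.5), given as a description over libraries that share lines and letters, was 0.89 between PRSS1 and PRSS2, 0.87 between PRSS2 and SPINK4 and 0.80 between PRSS1 and SPINK4. PRSS3 stood at -0.12 with PRSS1 and -0.14 with PRSS2, and after centring each letter at 0.22 and 0.28. PRSS3 and SPINK4 stood at -0.10 as measured and at 0.63 after centring each letter. Reads divided between PRSS1 and PRSS2 enter their r, and so does the difference between guide and NTC lines for which PRSS2 was chosen. Among 13034 other genes at a mean of 1 CPM or more, the most alike to PRSS2 were MYCL (0.91), CTNNB1 (0.90) and ZNF77 (0.89), and to PRSS1 THOC5 (0.91), MYCL (0.90) and PRSS2. The most alike to PRSS3 were CHMP1A (0.98), TNFSF9 (0.97) and SLCO4A1 (0.97), and to SPINK4 PCK1 (0.87), PRSS2 and RUFY2 (0.86). With each letter centred, MEX3A, CEP170 and AGR3 were most alike to PRSS2 (each 0.95), and TOX3 (0.94), ANKRD20A5P (0.94) and FAM49B (0.93) to PRSS1. For PRSS3 they were GPX2 (0.94), IFI27L1 (0.94) and TPRXL (0.93), and for SPINK4 PDCD6 (0.94), PCK1 (0.94) and RASL11A (0.93). SPINK1, under 1 CPM, was not searched.

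**Figure D4:**
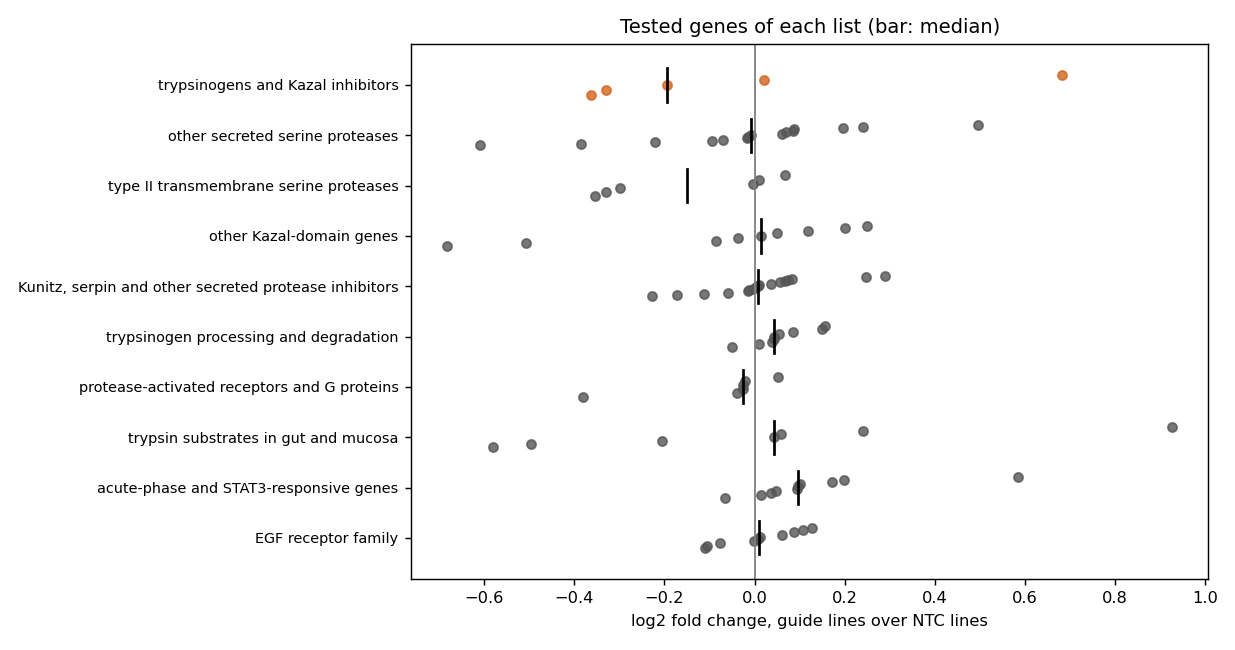
Log2 fold change of guide lines over NTC lines (horizontal axis) for each tested gene of 9 lists (grey) and for the 5 tested members (orange, chosen with this contrast known); vertical bars are medians. List medians lie between -0.15 and 0.10, and the genes farthest from 0 include genes under 1 CPM.

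Other genes of the trypsin system were read from 9 lists. In the comparison of guide with NTC lines edgeR called 4 of 17335 genes (0.0231%), of which 3 were higher (0.0173%) and 1 lower (0.00577%) in guide lines, and 0 genes of the 9 lists were among them. Of the secreted serine proteases and pancreatic zymogens 15 of 26 listed genes were tested (median log2 fold change -0.01, with 7 positive and 8 negative). The most abundant were PRSS23 at -0.02 (SE 0.03), KLK10, a kallikrein, at 0.09 (SE 0.03, adjusted p = 0.517) and PRSS8, which encodes prostasin, at 0.06 (SE 0.03). Of the type II transmembrane serine proteases, the family of enteropeptidase, 6 of 13 were tested (median -0.15), and ST14, which encodes matriptase, stood at 0.01 (SE 0.03), TMPRSS2 at 0.00 (SE 0.03) and TMPRSS4 at 0.07 (SE 0.04). The proteases of this family that reached 10 CPM were thus within 0.10 of the NTC level on the log2 scale.

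Of the inhibitor genes outside the members 0 passed the test. Of 22 other Kazal-domain genes 9 were tested, 5 positive and 4 negative (median 0.02), with the basement membrane proteoglycan gene AGRN at 0.12 (SE 0.03, adjusted p = 0.254), the protease gene HTRA1 at -0.08 (SE 0.05) and KAZALD1 at 0.02 (SE 0.05). The Kunitz, serpin and other inhibitors had 17 of 30 tested, 10 positive and 7 negative (median 0.01). SPINT2 and SPINT1, which encode inhibitors of matriptase and prostasin, stood at 0.01 (SE 0.03) and 0.07 (SE 0.03, adjusted p = 0.505), and SERPINB1, an inhibitor of neutrophil proteases, at 0.00 (SE 0.03).

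Of the genes upstream and downstream of trypsin 0 passed the test. The unadjusted edgeR p was under 0.05 for 3 of 9 tested processing genes and 3 of 7 tested substrates. The same held for 2 of 10 tested acute-phase genes, 2 of 10 EGF receptor family genes and 0 of 6 receptor genes. Of all 17335 genes it held for 1384. Of 11 genes of trypsinogen processing 9 were tested, 8 positive and 1 negative (median 0.04), with the lysosomal proteases CTSB, which can activate trypsinogen, at 0.01 (SE 0.03) and CTSD at 0.04 (SE 0.03), and LAMP1 at 0.05 (SE 0.03). The trypsin receptor gene F2RL1, which encodes PAR2, held 94.0 to 106.3 CPM in guide libraries and 96.4 to 109.4 CPM in NTC libraries, at -0.03 (SE 0.03, adjusted p = 0.893). The 8 receptor and G protein genes had 6 tested, 1 positive and 5 negative (median -0.03), including GNA11 at 0.05 (SE 0.03) and ARRB1 at -0.02 (SE 0.03). Of 17 trypsin substrates 7 were tested (median 0.04), with SCNN1A at 0.04 (SE 0.03), MMP14 at 0.06 (SE 0.04) and DEFA6, a Paneth cell defensin, at -0.50 (SE 0.17, adjusted p = 0.468). Acute-phase and STAT3-responsive genes, a class to which SPINK1 is known to belong in liver, had 10 of 21 tested, 9 positive and 1 negative (median 0.10), with STAT3 at 0.05 (SE 0.03), CEBPB at 0.04 (SE 0.04) and the receptor gene IL6ST at -0.07 (SE 0.04). The 10 genes of the EGF receptor family and its ligands had a median of 0.01, with ERBB3 at 0.00 (SE 0.03), ERBB2 at 0.09 (SE 0.03, adjusted p = 0.388) and EREG at -0.11 (SE 0.03, adjusted p = 0.390).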

How the data were processed

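The authors deposited 1 table of RSEM expected counts per gene for 10 mRNA libraries of LS180 cells, on build hg38 per the submitters' processing notes, which also name CASAVA 1.8.2, TopHat2 2.0.8 and FastQC 0.11.2 without saying what each did. That the counts are from RSEM was read from the deposited table's name and its values, of which 7.12% were not whole. The annotation release of the counting is not given in the sources used here. Poly(A) RNA was captured with oligo(dT) and copied with random primers, per the labels' protocols. These steps alone do not settle whether strand was kept, so reads of overlapping genes on opposite strands may not be told apart by strand.

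Counts were rounded, which moved a value by at most 0.5, and scaled by TMM. Tests used edgeR 4.0.16 (quasi-likelihood, two-sided, filterByExpr, R 4.3.3) with Benjamini-Hochberg adjustment over all tested genes at 0.05. Guide lines were compared with NTC lines on A and B summed per line (3 against 2 lines), and lines and letters on the 10 libraries. The labels do not tie A and B of a line to separate cultures. The p-values of the fits on the 10 libraries therefore reflect the spread among the libraries in hand, and that spread may be technical. In the main comparison of guide with NTC lines the p-values and SEs reflect the spread between the summed lines of an arm. Intervals of counts are exact Poisson intervals and cover counting error only. Libraries of the same letter deviated together in all 10 pairs of lines. There r was 0.486 to 0.781 over 9527 genes at 10 CPM or more and 0.189 to 0.361 over all 16411 tested. The letters were therefore taken to pair the samples in the fits of the letters and in the replicate block. The main fits among guide lines and between NTC lines left the letter out, so their spread holds the difference between letters. Pairing was read from the data and the shared letters in the titles.

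Members and lists were chosen with earlier results of these data known. Besides the members, the 3 most abundant genes of each of the 9 gene lists, any of their genes past the threshold and the 3 genes most alike to each member are named. The lists hold serine proteases, inhibitors, processing and receptor genes, substrates, acute-phase and EGF receptor genes, and markers of 7 cell types. Marker genes are named as examples only, chosen after their values were seen. Shared 50-base words and coding identity were computed from GENCODE 29 transcripts, and promoters come from RefSeq. DESeq2 1.42.0, other scalings, no filter, a replicate block, and leaving out libraries, letters or lines were alternatives.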

Additional observations from a re-analysis of the deposited data

Results flagged for a closer look

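SPINK1 in NTC2 B, at 0.309 CPM from 13 counts (exact Poisson 95% interval 6.92 to 22.2 counts), stood apart from the other 3 NTC libraries, which held 0.543 to 0.590 CPM. Its gap to the nearest library was 0.832 of the range of the 4 NTC libraries, just above Dixon's 95% critical value for 4 samples. Chance marks about 1 in 20 groups in this way, and 10 groups were examined. Without NTC2 B the log2 fold change of guide over NTC lines was 0.52, against 0.68 with it.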

How the results depend on the processing

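The guide against NTC values of PRSS1 (-0.47 to -0.27), SPINK4 (-0.25 to -0.13) and SPINK1 (0.49 without line NTC2 to 0.91 without line NTC1) kept their sign in 22 of 22 alternatives, and PRSS2 (-0.38 to -0.27) in 23 of 23. PRSS3 ran from -0.08 to 0.12. The directions of PRSS2 and SPINK1 were known when they were chosen, and their guide and NTC libraries did not overlap. Leaving out libraries or lines could thus hardly turn their sign. All alternatives reuse the same libraries, so a kept sign is no independent support for any member. No test of a member passed under any alternative run. Counts of called genes were less stable. For guide against NTC lines, edgeR called 4 genes, DESeq2 55, the fit without a filter 238, the A libraries alone 11 and the B libraries alone 3. Leaving out a line gave 10 (sg1), 7 (sg2), 13 (sg3), 29 (NTC1) or 5 (NTC2), and leaving out a library 1 to 12. Among guide lines 0 genes were called, but 8 by DESeq2, 141 without a filter and 0 to 2 with a library left out. For NTC2 against NTC1 the count was 0, but 2 by DESeq2, 57 without a filter and 0 to 1 with a library left out. For the letter difference by arm it was 0, but 3 by DESeq2, 101 without a filter and 2 to 8 with a library left out. With the letter as a replicate block, the paired fits called 8 genes among guide lines and 2 between NTC lines, and no member passed in them. Between guide and NTC lines the paired fit called 9 genes. It used single libraries, with A and B of a line as replicates, so its p-values leave out the spread between lines of an arm. Its count is thus not like the 4 of the main fit, which took lines as units. Members have no test between guide and NTC lines. The causes were not tested. SPINK5 and TMPRSS15 did not pass the filter on low counts and have no fold change. Of the 5 tested members low counts limit SPINK1 most, at 13 to 44 counts a library.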
